A study of Mus musculus with 112 samples.

Results

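The 10 genes described here, Bcat1, Bcat2, Bckdha, Bckdhb, Dbt, Ivd, Mccc1, Mccc2, Acadsb and Hibadh, encode enzymes that break down the branched-chain amino acids leucine, isoleucine and valine. They were taken by symbol from the probe sets that carry 1 gene symbol, with the brightest probe set for each gene, and all 10 of the 10 were found among the 19938 genes measured in this way. Only Hibadh had a second such probe set, with a mean log2 signal of 3.67 against 11.47 for the one used. Expression was measured in epididymal white adipose tissue (WAT), the fat pad beside the epididymis, of 112 male mice on 112 Affymetrix Mouse Gene 1.0 ST arrays. In each of 7 strains, 8 mice were calorie restricted (CR) and 8 stayed on the control diet. The strains were B6C3F1/J, CBA/J, C57BL/6J, 129S1/SvImJ, C3H/HeJ, DBA/2J and BALB/cJ, with BALB/cJ and C57BL/6J written Balbc/J and C57BL6/J in the labels. B6C3F1/J mice are a cross between the C57BL/6 and C3H backgrounds, and the other 6 strains are inbred.

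All mice came from 1 supplier at 6 weeks of age, were housed singly and received 84 kcal per week of a purified diet based on AIN93M until 8 weeks of age, when CR began. Tissue was collected at 22 weeks of age after an overnight fast in both diet groups, so every value below comes from fasted mice. The size of the restriction was not the same in all strains, because the allotment of CR mice was cut further partway through in 129S1/SvImJ and C57BL/6J and because BALB/cJ mice of both diets were given more food than the others. By the paper's feeding details, 129S1/SvImJ and C57BL/6J shared 1 schedule, and the strains other than these and BALB/cJ shared another. Strains with a shared schedule were given the same amounts of food on each diet. For CR mice and the CR effect, strain and feeding schedule cannot be told apart between strains on different schedules, including BALB/cJ against any other. Among control mice this holds for BALB/cJ alone, since the other schedules in the paper differ in the food of CR mice.

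Branched-chain amino acids are broken down in mitochondria. Either of the aminotransferases encoded by Bcat1 (cytosolic) and Bcat2 (mitochondrial) removes the amino group. The branched-chain 2-oxoacid dehydrogenase then commits the carbon skeleton to oxidation. Its E1 component is built of the products of Bckdha and Bckdhb, its E2 core of the product of Dbt, and its E3 subunit, encoded by Dld, is shared with pyruvate dehydrogenase. After this step the pathways part. Isovaleryl-CoA dehydrogenase (Ivd) and methylcrotonyl-CoA carboxylase (Mccc1 and Mccc2) act on leucine, the short/branched-chain acyl-CoA dehydrogenase (Acadsb) on isoleucine, and 3-hydroxyisobutyrate dehydrogenase (Hibadh) on valine. Fat tissue is a known site of this catabolism, which supplies acetyl-CoA and propionyl-CoA to adipocytes.

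Some libraries stood apart. In 17 arrays the marker genes of the epididymis were raised, 8 arrays were far from the others on a principal component, and together these were 20 arrays, 14 of CR mice and 6 of control mice. They included 7 of the 8 C57BL/6J CR arrays, 4 CBA/J CR arrays, 2 DBA/2J CR arrays, 1 B6C3F1/J CR array and 6 DBA/2J control arrays. The mean log2 signal of the 8 epididymis markers measured was 12.42 in C57BL/6J CR mouse 2, against 4.75 to 8.54 in the other CR mice of that strain, and 12.28 in CBA/J CR mouse 5, against 5.06 to 8.69. In DBA/2J CR mouse 3 the 3 B cell markers averaged 10.40, against 6.00 to 7.01 in the other CR mice, and the 5 T cell markers averaged 8.68, against 6.24 to 6.58. This mouse met neither rule and is not among the 20 arrays, so results without those arrays still include it. Adipocyte markers lay between 11.49 and 12.82 in CR mice and between 12.47 and 12.88 in control mice, with the lowest value in C57BL/6J CR mouse 2. Results that rest on these libraries are given with and without them.

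On average over the 7 strains, 7 of the 10 genes rose on CR and 0 fell, at a limma adjusted p under 0.05. Among all genes, 21.9% rose and 22% fell by the same test. The genes that rose were Bcat2, Bckdha, Ivd, Mccc1, Hibadh, Acadsb and Dbt, while Bckdhb, Mccc2 and Bcat1 did not pass. Without the 20 arrays that stood apart, 8 of the 10 rose, Bckdhb among them, beside 19.8% of all genes. The median log2 change of the 10 genes was 0.14, and that of all genes was 0.01. The changes were modest in size, with the largest, in Bcat2, at 1.34-fold.

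Bcat2 had the largest mean CR effect. Its log2 change over the 7 strains was 0.42 (SE 0.04, adjusted p = 1.3e-14 from limma), and the mean was higher on CR in 7 of 7 strains. In B6C3F1/J the CR mice ran from 10.16 through a median of 10.40 to 10.51 log2 units and the control mice from 9.69 through 9.83 to 9.97. These groups did not overlap. In C57BL/6J the CR mice had a lowest value of 9.63, a median of 11.07 and a highest value of 11.19, and the control mice lay between 10.09 and 10.23 with a median of 10.11. There 7 CR mice were above every control mouse and CR mouse 2, the array with the highest epididymis signal, was below every control mouse. The log2 change in C57BL/6J was 0.75 with all mice (SE 0.17, adjusted p = 0.0051 from limma) and 0.93 without CR mouse 2 (SE 0.05). In CBA/J the CR mice lay between 10.18 and 11.15, with a median of 10.70, and the control mice between 9.93 and 10.39, with a median of 10.29; 7 of the 8 CR mice were above all controls and CBA/J CR mouse 5 was the lowest. In BALB/cJ the CR mice lay between 10.55 and 11.12 and the control mice between 10.43 and 11.12, and the groups overlapped over nearly their whole range.

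**Figure D1:**
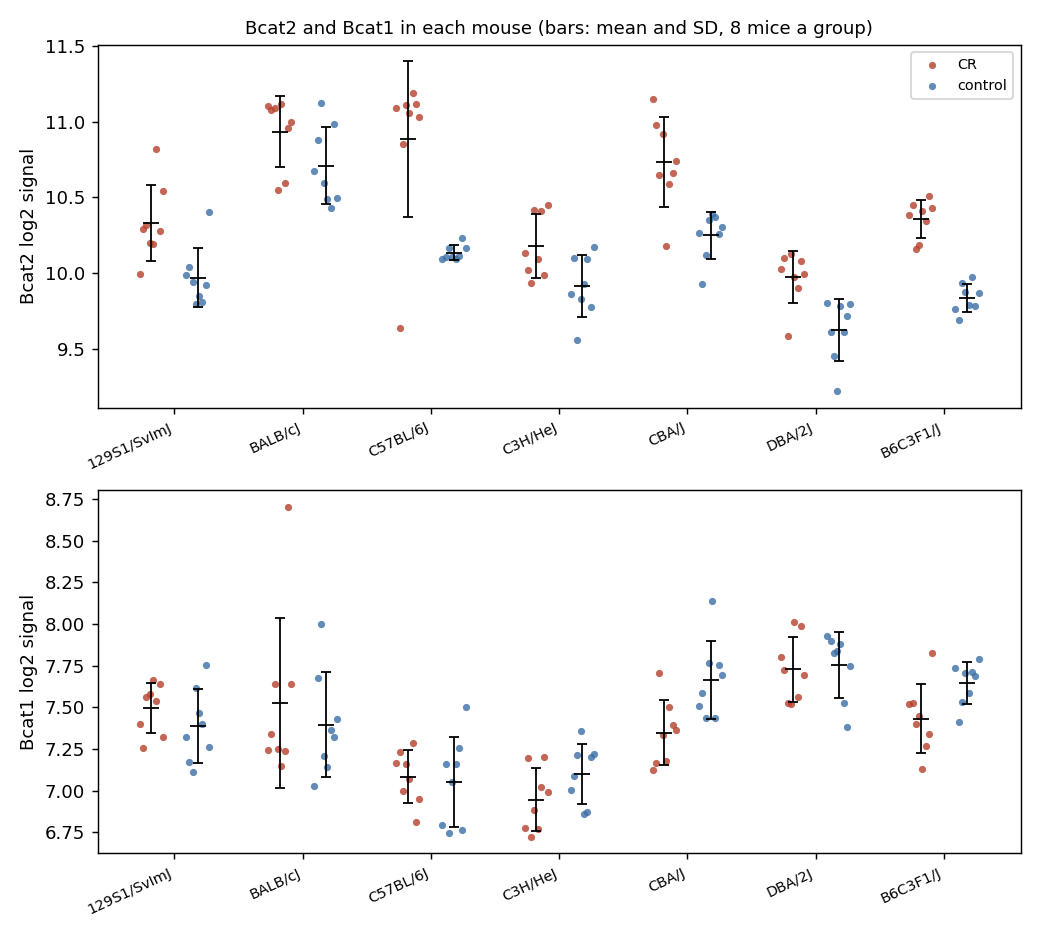
Log2 signal of Bcat2 (upper panel) and Bcat1 (lower panel) in each mouse by strain, CR in red at the left of each pair and control diet in blue at the right. Points are mice and bars are the mean and SD of 8 mice. Bcat2 means were higher on CR in 7 of 7 strains, with 1 low CR mouse at 9.63 in C57BL/6J, while Bcat1 means were higher in 3 strains and lower in 4.

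Bcat1, the cytosolic partner, was the one gene of the 10 with a negative mean effect. It also had the lowest signal of the 10, with a mean of 7.40 log2 units over all arrays, at percentile 54 of all genes. The next lowest, Mccc1, had 9.11, at percentile 84. Whether the lower signal of Bcat1 made its differences harder to see was not tested. Over the strains it differed by -0.06 (SE 0.05, limma adjusted p = 0.27). CR mice had lower means than control mice in 4 strains and higher means in 3. In CBA/J the CR mice lay between 7.13 and 7.71 around a median of 7.35, and the control mice between 7.44 and 8.14 around a median of 7.64. The difference was -0.32 on the log2 scale (SE 0.10, limma adjusted p = 0.033 within the strain), the only decrease of the 10 genes within a strain at an unadjusted p under 0.01. Without CBA/J CR mouse 5 it was -0.29 and missed that threshold (unadjusted p = 0.011 from limma). It also missed it with the methods' test, quantile normalization, the replicate number as a block, array weights and either set of arrays that stood apart left out, with unadjusted p between 0.011 and 0.033. With array weights or those arrays left out, Bcat1 in B6C3F1/J passed instead, with changes of -0.28 and -0.27, against -0.21 with all arrays. In BALB/cJ, CR mouse 7 reached 8.70, against 7.15 to 7.64 in the other CR mice and 7.03 to 8.00 in the control mice. Without the BALB/cJ mice the mean of the other 6 strains was -0.10 and passed the test (adjusted p = 0.042 from limma).

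Of the dehydrogenase genes, Bckdha, which encodes the E1 alpha subunit, rose and Bckdhb, which encodes the E1 beta subunit, did not pass. The log2 change of Bckdha over the strains was 0.30 (SE 0.04, adjusted p = 3.7e-12 from limma), with a higher mean in 7 of 7 strains. In CBA/J the CR mice lay between 9.56 and 10.21 with a median of 10.08, and the control mice between 9.23 and 9.71 with a median of 9.53. In B6C3F1/J the CR mice lay between 9.41 and 9.95 and the control mice between 9.01 and 9.37, without overlap. These 2 strains had the largest Bckdha effects, with log2 changes of 0.51 in CBA/J and 0.50 in B6C3F1/J, while the other 5 strains lay between 0.16 and 0.32.

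The mean change of Bckdhb was 0.03 (SE 0.03, adjusted p = 0.49 from limma). It was called in B6C3F1/J alone at an unadjusted p under 0.01, where the CR mice lay between 10.88 and 11.18 and the control mice between 10.71 and 10.98, with 5 CR mice above all controls. C57BL/6J CR mouse 2 had 9.50, against 10.67 to 10.88 in the other CR mice and 10.58 to 10.98 in the control mice. Without that mouse the C57BL/6J change was 0.03, against -0.13 with it, and the mean over the strains was 0.05 and passed (adjusted p = 0.043 from limma). Without all 20 arrays that stood apart the mean was 0.07 (adjusted p = 0.035 from limma). Dbt, the E2 core, rose by 0.10 (SE 0.03, limma adjusted p = 0.0025), with a higher mean on CR in 6 of 7 strains. In B6C3F1/J Dbt lay between 10.09 and 10.25 in CR mice and between 9.84 and 10.04 in control mice, and the groups did not overlap. Without B6C3F1/J the Dbt change was 0.08 and missed the threshold (adjusted p = 0.056 from limma).

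Of the leucine genes, Ivd rose by 0.25 (SE 0.03, adjusted p = 4.6e-10 from limma), with a higher mean on CR in 7 of 7 strains and changes between 0.12 in BALB/cJ and 0.37 in B6C3F1/J. It was the most even of the genes that rose by over 0.2, and its effect was not found to differ between strains (F-test adjusted p = 0.55 from limma). In 129S1/SvImJ it lay between 10.16 and 10.52 in CR mice and between 9.95 and 10.35 in control mice, with 4 CR mice above all controls. Mccc1, which encodes the biotin-carrying subunit of methylcrotonyl-CoA carboxylase, rose by 0.23 (SE 0.04, adjusted p = 1.5e-07 from limma), with changes between 0.00 in DBA/2J and 0.46 in B6C3F1/J. In B6C3F1/J it lay between 9.01 and 9.34 in CR mice and between 8.49 and 8.86 in control mice, without overlap. Mccc2, the other subunit of the same enzyme, changed by 0.01 (SE 0.03, adjusted p = 0.79 from limma). Its largest differences were 0.13 in B6C3F1/J and -0.16 in DBA/2J, and it passed an unadjusted p under 0.01 in 0 of 7 strains.

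Acadsb on the isoleucine branch rose by 0.13 (SE 0.03, adjusted p = 7.4e-04 from limma). The means were higher on CR in 5 of 7 strains, with the largest changes in B6C3F1/J (0.31), CBA/J (0.28) and C57BL/6J (0.25), against changes of -0.07 in 129S1/SvImJ and 0.00 in C3H/HeJ. Of these only CBA/J and B6C3F1/J passed an unadjusted p under 0.01 within the strain. In B6C3F1/J the CR mice lay between 9.49 and 9.77, all above the highest control mouse at 9.45. Hibadh on the valine branch rose by 0.14 (SE 0.03, adjusted p = 8.9e-06 from limma), with a higher mean in 7 of 7 strains and changes between 0.04 in 129S1/SvImJ and 0.21 in CBA/J.

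Within strains, each fitted alone with 16 mice, 19 of the 70 gene-by-strain pairs were higher on CR at an unadjusted limma p under 0.01, the threshold the study used, and 1 was lower. These are 27.1% of the 70 pairs, beside 8.9% higher and 8.58% lower over all genes and strains. After adjustment over all genes 17 pairs were higher and 1 was lower. The share depended on the strain. In B6C3F1/J 8 of the 10 genes were higher, all except Bcat1 and Mccc2, where 16.5% of all genes were. In 129S1/SvImJ, where 14.4% of all genes were higher, they were Bcat2, Bckdha, Ivd and Mccc1. In CBA/J, where 8.52% were, they were Bcat2, Bckdha, Ivd and Acadsb. In DBA/2J Bcat2 and Ivd were higher at this threshold, beside 3.15% of all genes, and neither passed after adjustment. Leaving out the DBA/2J arrays that stood apart left 6 CR mice, CR mouse 3 among them, and 2 control mice. In that fit 0 of the 10 passed in DBA/2J, beside 1.37% of all genes, with Bcat2 at 0.22 and Ivd at 0.29. Bcat2 alone was higher in C57BL/6J, beside 9.8% of all genes, and 0 of the 10 were in C3H/HeJ or BALB/cJ, where 9.25% and 0.622% of all genes were.

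**Figure D2:**
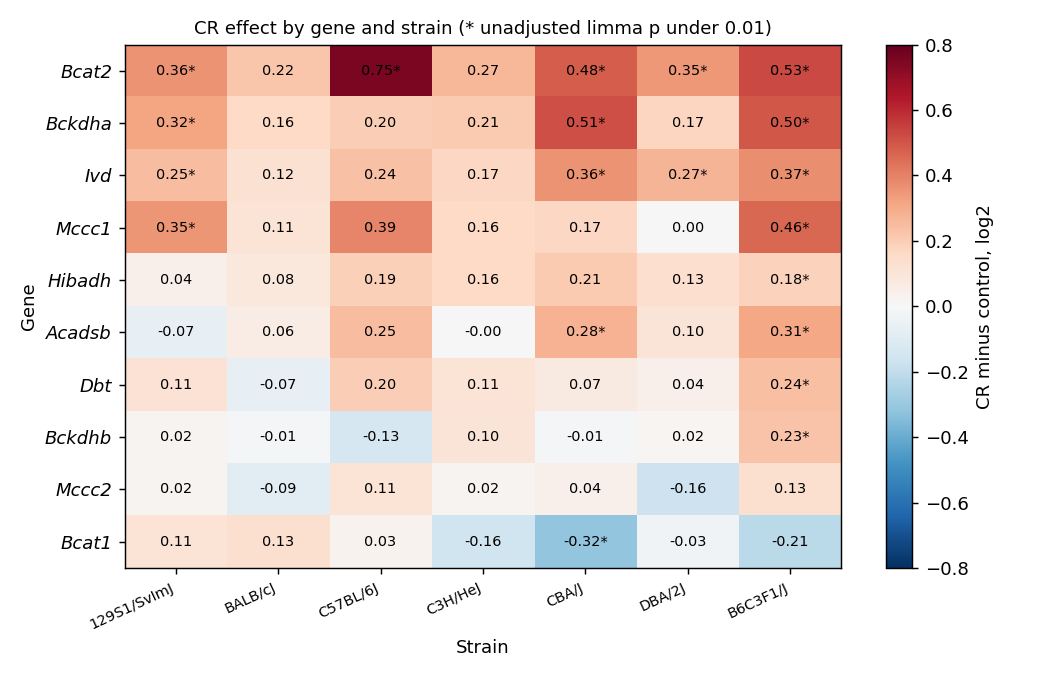
CR minus control on the log2 scale for the 10 genes (rows, in order of the mean effect) in the 7 strains (columns). Red is higher on CR, blue is lower, and a star marks an unadjusted limma p under 0.01 within the strain. Bcat2, Bckdha, Ivd and Hibadh were above 0 in every column, and the column with most stars, 8, was B6C3F1/J.

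The 5 genes whose CR and control mice did not overlap in B6C3F1/J were Bcat2, Bckdha, Dbt, Mccc1 and Acadsb, all higher on CR. In that strain 6.95% of all genes had every CR mouse above every control mouse. In no other strain did any of the 10 genes separate in this way.

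In C57BL/6J the result turned on 1 mouse. CR mouse 2 had the lowest value of its group in 9 of the 10 genes, all except Bcat1, and its adipocyte markers averaged 11.49, against 12.55 to 12.71 in the other CR mice. Mccc1 was 8.24 in this mouse, 9.32 to 9.51 in the other CR mice and 8.69 to 9.14 in the control mice. Without it 7 of the 10 genes were higher at an unadjusted p under 0.01 in C57BL/6J, beside 13.8% of all genes. These were Bcat2, Mccc1 (0.54), Ivd (0.37), Acadsb (0.36), Bckdha (0.33), Dbt (0.33) and Hibadh (0.27), with limma adjusted p between 3.8e-09 and 0.0022. Bckdhb, Mccc2 and Bcat1 again did not pass. Most of the C57BL/6J CR mice left still had raised epididymis markers (4.75 to 8.54, against 4.84 to 5.28 in the control mice). In this strain 1 CR array and all 8 control arrays did not stand apart. Diet and epididymis signal thus remain aligned in C57BL/6J, and the part of that signal in these calls was not tested. In CBA/J without CR mouse 5, Mccc1 (0.24) and Hibadh (0.27) also passed the unadjusted threshold, beside 11.6% of all genes. In DBA/2J without CR mouse 3 Bcat2 and Ivd were called, beside 4% of all genes, with Bcat2 at 0.41 (adjusted p = 0.035 from limma).

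**Figure D3:**
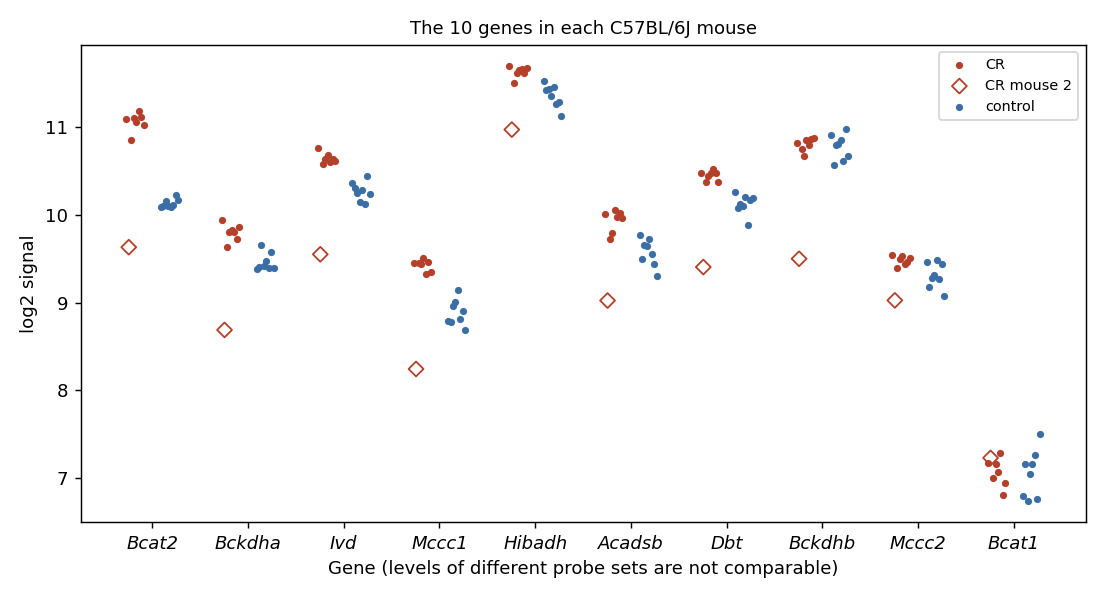
Log2 signal of the 10 genes in the 16 C57BL/6J mice, CR in red at the left of each pair and control in blue at the right, with CR mouse 2 as an open diamond. The diamond lies below the other 7 CR mice for every gene except Bcat1, while those 7 mice are all above the control mice for Bcat2, Ivd, Mccc1 and Dbt.

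Whether the CR effect differed between strains was tested by an F-test in 1 model of all groups. With all arrays, 0 of the 10 genes passed an adjusted p under 0.05 in limma, where 19% of all genes did, and 5 of the 10 had an unadjusted p under 0.05, beside 34.7% of all genes. The lowest adjusted p were 0.078 for Mccc1, 0.080 for Bckdha and 0.084 for Acadsb. The answer depended on the arrays included. Without C57BL/6J CR mouse 2, 6 genes passed (Bcat2, Bckdha, Dbt, Mccc1, Mccc2 and Acadsb), beside 22.9% of all genes. Without the 20 arrays that stood apart, 4 passed (Bcat2, Bckdha, Dbt and Acadsb), beside 16.6% of all genes, with only 1 CR mouse then left in C57BL/6J.

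In BALB/cJ the changes of the 10 genes lay between -0.09 and 0.22, with 7 of the 10 means higher on CR. The BALB/cJ effect minus the mean effect of the other strains was negative for 9 of the 10 genes, from -0.23 for Bcat2 to -0.05 for Bckdhb, and 0.23 for Bcat1. None of the 10 differences passed an adjusted p under 0.05 in limma, where 3.25% of all genes did, and 1, in Dbt, passed at an unadjusted p under 0.05. Without C57BL/6J CR mouse 2 the Dbt difference was -0.22 and passed (adjusted p = 0.039 from limma).

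The measured CR effect differed between the partner subunits of both enzymes and between the 2 aminotransferases. Each gene was read by its own probe set, and whether these probe sets register a change equally was not tested. The differences between these pairs were examined after their values had been seen. For each mouse the log2 signal of one gene was subtracted from that of its partner, so that the size of the CR effect was compared and not the level. The CR effect on Bckdha was larger than that on Bckdhb by 0.27 on average over the strains, with the same sign in 7 of 7 strains. It was larger for Bckdha than for Dbt by 0.19 (6 of 7 strains), for Mccc1 than for Mccc2 by 0.22 (7 of 7) and for Bcat2 than for Bcat1 by 0.49 (7 of 7). Each of these 4 had p = 1e-05 in a two-sided permutation test of the diet labels within strains, the smallest that 100000 permutations can give, and an adjusted p over the 4 of 1e-05. They were 0.29, 0.22, 0.27 and 0.49 in the same order without the 20 arrays that stood apart. Within single strains the Mccc1 and Mccc2 effects differed by 0.33 in 129S1/SvImJ and 0.33 in B6C3F1/J (two-sided exact permutation adjusted p over 28 tests of 7.3e-04 in both), and by 0.13 in CBA/J (adjusted p = 0.13 in the same exact test). In that test Mccc1 and Mccc2 also missed an adjusted p of 0.05 in BALB/cJ (0.055). Bckdha and Bckdhb missed it in BALB/cJ (0.11), C3H/HeJ (0.16) and DBA/2J (0.052) and passed in the other strains. Bcat2 and Bcat1 missed it in 129S1/SvImJ (0.16) and BALB/cJ (0.71) and passed in the others. Bckdha and Dbt passed in 129S1/SvImJ, CBA/J and B6C3F1/J alone.

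**Figure D4:**
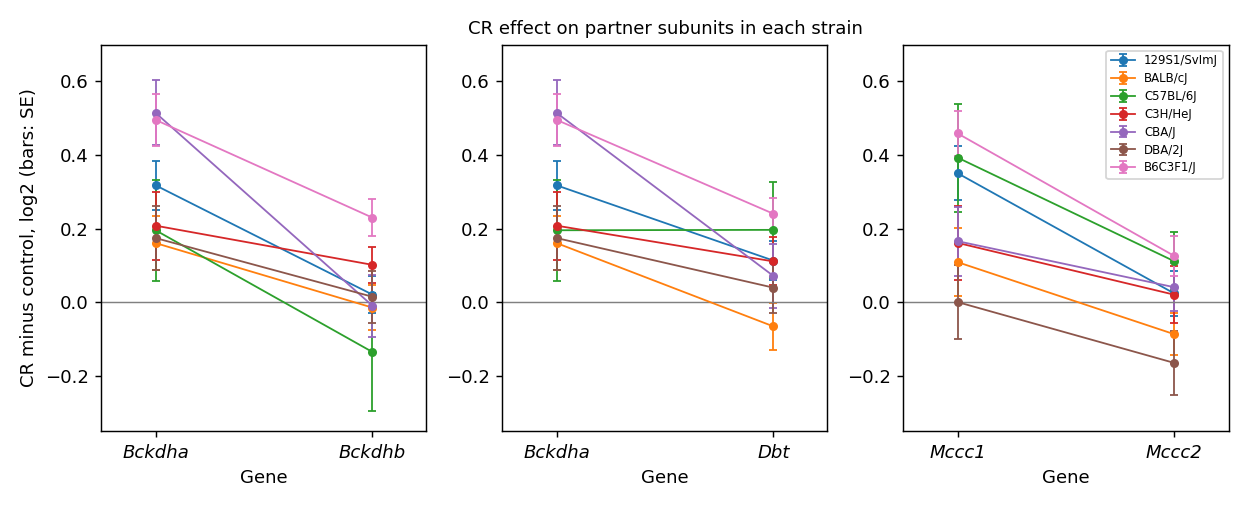
CR minus control on the log2 scale for partner genes in each of the 7 strains, with SE, and lines joining the 2 genes in a strain. Every line falls from Bckdha to Bckdhb and from Mccc1 to Mccc2, and 6 of 7 fall from Bckdha to Dbt, with C57BL/6J level.

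The promoters of the 2 pairs are shown because the measured CR effects of partners of 1 enzyme were unequal, and that of Ivd because it holds the most CCAAT boxes of the 9 genes matched. The stretches are the 250 bases before the start site in RefSeq on GRCm38.p6, and 9 of the 10 genes were matched, with 12 start sites in all; Dbt had no entry. Capitals mark CCAAT (or ATTGG on the other strand) and CACGTG, the E-box core.
Bckdha promoter, chr7:25658762-25659011, minus strand: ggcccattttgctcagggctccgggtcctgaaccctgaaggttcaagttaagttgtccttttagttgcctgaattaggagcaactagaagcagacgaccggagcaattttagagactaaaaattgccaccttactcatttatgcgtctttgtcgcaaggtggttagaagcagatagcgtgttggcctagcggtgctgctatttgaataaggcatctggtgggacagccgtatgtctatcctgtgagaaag
Bckdhb promoter, chr9:83924887-83925136, plus strand: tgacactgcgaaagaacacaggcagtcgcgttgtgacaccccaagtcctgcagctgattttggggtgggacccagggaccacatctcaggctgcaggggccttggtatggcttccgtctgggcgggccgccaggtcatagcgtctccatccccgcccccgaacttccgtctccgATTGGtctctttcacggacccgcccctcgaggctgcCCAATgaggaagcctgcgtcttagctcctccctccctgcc
Mccc1 promoter, chr3:36000679-36000928, minus strand: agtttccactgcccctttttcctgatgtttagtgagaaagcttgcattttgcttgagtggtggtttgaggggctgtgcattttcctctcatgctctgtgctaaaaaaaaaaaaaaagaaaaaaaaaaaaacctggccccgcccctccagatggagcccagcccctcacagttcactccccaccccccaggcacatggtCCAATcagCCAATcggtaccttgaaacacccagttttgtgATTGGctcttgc
Mccc2 promoter, chr13:100015640-100015889, minus strand: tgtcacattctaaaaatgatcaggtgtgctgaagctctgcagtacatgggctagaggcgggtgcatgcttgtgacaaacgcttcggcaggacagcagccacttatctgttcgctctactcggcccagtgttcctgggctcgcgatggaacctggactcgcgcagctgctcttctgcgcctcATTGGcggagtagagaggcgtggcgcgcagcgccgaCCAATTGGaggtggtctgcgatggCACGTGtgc
Ivd promoter, chr2:118861744-118861993, plus strand: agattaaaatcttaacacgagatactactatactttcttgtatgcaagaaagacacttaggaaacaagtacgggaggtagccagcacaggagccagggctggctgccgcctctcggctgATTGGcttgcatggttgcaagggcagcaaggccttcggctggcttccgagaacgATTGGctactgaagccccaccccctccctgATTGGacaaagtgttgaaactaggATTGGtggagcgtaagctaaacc
Of all 32851 promoter stretches of the same length, 33.8% hold CCAAT on either strand and 6.02% hold CACGTG. Bckdha had no CCAAT in this window and Bckdhb had 2, at its more upstream start site. Mccc1 and Mccc2 had 3 each, with 2 of those of Mccc2 overlapping by 2 bases, and Ivd had 4. At least 1 was found at a start site in 6 of the 9 genes. This counts genes, with 12 start sites between them, while the 33.8% counts single stretches, so the 2 shares are not alike. The E-box core was found in Mccc2 alone of the 9 genes. The half-site AAGGTCA of estrogen-related receptors (TGACCTT on the other strand), which 4.08% of all stretches hold, was in 0 of the 9. These matches describe letters in a window and are not binding sites.

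In control mice the level of all 10 genes differed between strains (limma F-test, adjusted p between 8.0e-18 for Mccc2 and 1.2e-04 for Bckdha), where 56.6% of all genes did. Bcat2 was highest in BALB/cJ with 10.71 ± 0.26 log2 units and lowest in DBA/2J with 9.62 ± 0.20 (SD, n = 8 each), a 2.13-fold range, the widest of the 10. Between them came CBA/J with 10.25 ± 0.15, C57BL/6J with 10.13 ± 0.05, 129S1/SvImJ with 9.97 ± 0.20, C3H/HeJ with 9.91 ± 0.20 and B6C3F1/J with 9.83 ± 0.09 (SD, n = 8 each), and the gaps between those 5 neighbours were no larger than the larger of their SDs. BALB/cJ controls were also highest for Bckdha, Ivd, Mccc1, Mccc2 and Hibadh, but for Bckdha, Ivd and Hibadh the gap to the next strain was within the larger SD. B6C3F1/J controls were lowest for Bckdha (9.21 ± 0.12), Dbt (9.93 ± 0.09), Mccc1 (8.70 ± 0.14), Acadsb (9.28 ± 0.14) and Hibadh (11.20 ± 0.08, SD, n = 8 each). For Hibadh the DBA/2J controls were nearly level with them (11.21 ± 0.18, SD, n = 8). Bckdhb was set apart by a step, with CBA/J, DBA/2J, BALB/cJ, 129S1/SvImJ and C3H/HeJ controls between 11.56 and 11.28 and B6C3F1/J and C57BL/6J controls at 10.81 and 10.78. Bcat1 was highest in DBA/2J (7.75 ± 0.20) and lowest in C57BL/6J (7.05 ± 0.27, SD, n = 8 each). In both cases the gap to the next strain was within the larger SD. A sequence difference between a strain and the array's probes would move such a level without a change in RNA and was not tested. On CR the range between strains was narrower for 7 of the 10 genes and wider for Bcat1, Bckdhb and Mccc2. For Bckdha it was 1.29-fold on CR and 1.40-fold on the control diet. The lowest Bckdhb mean on CR, 10.64 in C57BL/6J, includes CR mouse 2 at 9.50, and the median of that group was 10.81. The Bckdhb range without this mouse was not calculated. The change in range itself was not tested.

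Further genes of the pathway, with its cofactor, transport, regulator and amino acid sensing genes counted in, changed mostly in the same direction. Of 35 further genes measured, 24 rose and 6 fell across strains at a limma adjusted p under 0.05, with a median log2 change of 0.24. Among all genes 21.9% rose and 22% fell by the same test. Dld, the shared E3 subunit, rose by 0.65 (SE 0.05, adjusted p = 9.0e-20 from limma), over 2 times the change of any E1 or E2 gene, and it also serves pyruvate dehydrogenase, whose genes Pdha1, Pdhb, Dlat and Pdhx rose by 0.82 to 1.10. Bckdk, the kinase that switches the branched-chain dehydrogenase off, rose by 0.24 (adjusted p = 9.4e-16 from limma), while the phosphatase gene Ppm1k, which reactivates it, had a change of -0.02 (adjusted p = 0.76 from limma). All of the 3 valine genes (Acad8 0.27, Hibch 0.36, Aldh6a1 0.11), both isoleucine genes (Hsd17b10 0.29, Acat1 0.21) and Auh, the hydratase after Mccc1 and Mccc2 on the leucine branch (0.31), rose. The 6 genes that carry propionyl-CoA to succinyl-CoA or make its cobalamin cofactor, Pcca, Pccb, Mcee, Mmut, Mmaa and Mmab, rose by 0.17 to 0.36. Of the biotin genes, Btd, which recycles the vitamin, rose by 0.19, and Hlcs, which attaches it to Mccc1 and Pcca, fell by 0.11.

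Transporter genes were divided. Slc25a44, a mitochondrial carrier of branched-chain amino acids, rose by 0.22 (adjusted p = 1.6e-09 from limma) and Slc43a1 by 0.31. The plasma membrane genes Slc7a8 and Slc3a2, whose products pair as a neutral amino acid exchanger, fell by 0.89 and 0.42, and Slc43a2 fell by 0.24. Slc7a5, the remaining transporter measured, had a change of 0.12 and did not pass (SE 0.14, adjusted p = 0.52 from limma). Sesn2, a leucine sensor of the mTORC1 pathway, fell by 0.82 (SE 0.05) with an unadjusted p under 0.01 in 7 of 7 strains. Among regulators, Klf15, a transcription factor known to induce branched-chain amino acid breakdown, rose by 0.43, the coactivator gene Ppargc1a by 0.38, Esrra by 0.25 and Mlxipl by 0.84, while Pparg had a change of -0.04 (adjusted p = 0.40 from limma). Beside these, all 13 citric acid cycle genes measured rose, by 0.18 to 0.51. Of 15 genes for the breakdown of other amino acids 6 rose and 1 fell, with a median of 0.05. By the same test, limma adjusted p under 0.05, 21.9% of all genes rose and 22% fell.

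**Figure D5:**
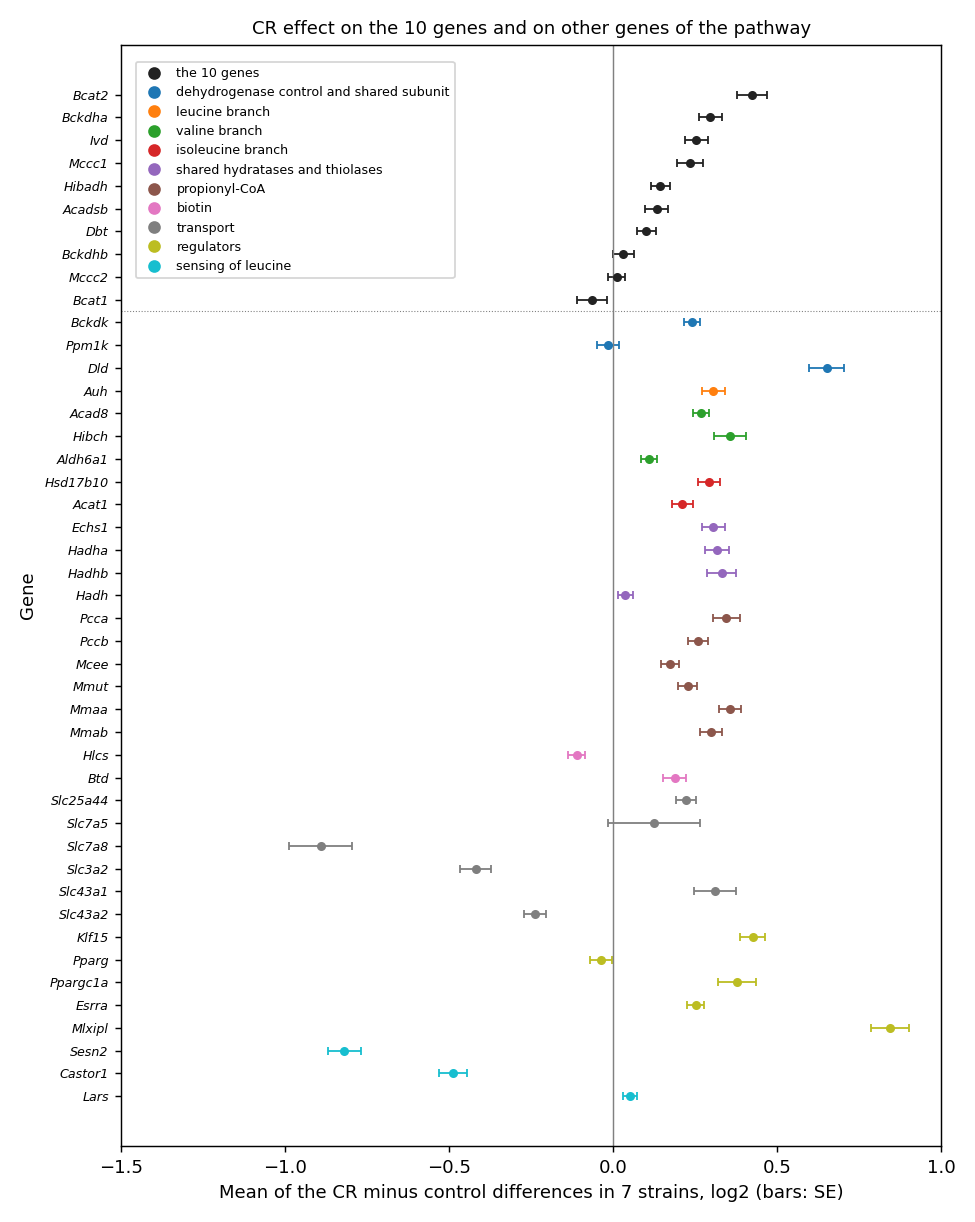
Mean of the 7 CR minus control differences on the log2 scale, with SE, for the 10 genes (black, above the dotted line) and 35 further genes, coloured by role. These 35 include cofactor, transport, regulator and sensing genes beside enzymes of the pathway. Most enzymes lie between 0.1 and 0.4 with Dld at 0.65, and Slc7a8 (-0.89) and Sesn2 (-0.82) lie farthest below 0.

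The WAT also changed in its cell type markers, and in whole tissue fewer cells of a type and less RNA per cell cannot be told apart. All 12 macrophage markers fell, with a mean log2 change of -1.78 in CBA/J, -1.69 in B6C3F1/J, -0.96 in C3H/HeJ, -0.93 in 129S1/SvImJ, -0.78 in C57BL/6J, -0.54 in DBA/2J and -0.08 in BALB/cJ. The mean of the list lay between 8.09 and 9.97 in CR mice and between 8.44 and 11.17 in control mice. None of the 7 adipocyte markers measured rose and 3 fell, and all 5 fibroblast and progenitor markers fell. The brown adipocyte list rose in 5 of 5 genes. These marker counts are at a limma adjusted p under 0.05 across strains, by which 21.9% of all genes rose and 22% fell. The part of these shifts in the results for the 10 genes was not tested.

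Within groups, mice with a high level of one of the genes tended to have high levels of the others. Deviations from the group mean were correlated over 112 mice for all 45 pairs. In the 36 pairs without Bcat1, Pearson's r lay between 0.53 and 0.83 with a median of 0.69, and Spearman's rho between 0.39 and 0.73. All 36 passed after adjustment over the 45 pairs (permutation test within groups, two-sided, 100000 resamples, highest adjusted p = 2.5e-05 for r and 1.1e-04 for rho). An r over 0.5 was found for 36 of these 36 pairs and for 4.17% of all pairs of genes. The closest pair was Bckdha and Ivd (r = 0.83, rho = 0.68), followed by Bckdhb and Dbt (r = 0.82, rho = 0.58). With the 2 mice farthest from the median of the first gene left out, r lay between 0.39 and 0.75. Without the 20 arrays that stood apart it lay between 0.36 and 0.79 over 92 mice, and 24 of the 36 pairs were over 0.5, beside 4.31% of all pairs of genes. Bcat1, the gene of the list with the lowest signal, was not part of it. Its r with the other 9 genes lay between -0.22 and 0.04, and 1 of the 9 passed by r, a negative relation with Mccc2 (r = -0.22, rho = -0.25, adjusted permutation p = 0.019 for r and 0.015 for rho). By rho 2 of the 9 passed, Mccc2 and Bckdhb (rho = -0.21, adjusted permutation p = 0.033; r = -0.15, adjusted permutation p = 0.070).

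As a description of likeness, the genes whose 14 group means followed each member most closely were listed by Pearson's r, which rises with both strain and diet differences. For Bckdha the closest was Ndufa10, a complex I gene (r = 0.97), for Acadsb it was Aldh6a1 of the valine branch (0.96), for Ivd Zfp503 (0.96), for Mccc1 Nf2 (0.96), for Dbt Kifbp (0.93), for Bcat2 Spryd7 (0.93), for Hibadh Rab33a (0.92), for Bckdhb Selenof (0.92), for Mccc2 Traf6 (0.91) and for Bcat1 Htra2 (0.89). None of these is one of the 10 genes. Each was picked from all genes measured, of which the members are a very small part, so this ranking does not show whether the members follow one another.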

How the data were processed

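Total RNA from epididymal WAT was hybridised to 1 array per mouse. The authors made log2 signals per probe set with the gene-level RMA-Sketch method (background correction, normalization between arrays, 1 value per probe set) of Affymetrix Expression Console, and these log2 values were used as deposited. Array medians lay between 6.72 and 6.86, and precision is limited by how many arrays there are. Of 35556 deposited probe sets, the platform annotation gives 1 gene symbol to 21789, several to 1621 and none to 12146. The brightest probe set of each gene, by its mean over all arrays, was kept.

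CR and control mice were compared with limma 3.58.1 in R 4.3.3, in 1 model of the 14 groups (mean effect over strains, F-tests between strains, BALB/cJ against the others) and in a separate fit of 16 arrays per strain, with Benjamini-Hochberg adjustment over all 19938 genes. The study called genes within strains by Student's t-test on the raw signals and across strains by analysis of variance; these are called the methods' tests and were run as alternatives. Other alternatives were 1 model for the strains, a filter on dim genes, the mean of probe sets, quantile normalization, centring, array weights (statmod 1.5.0), a variance trend, the replicate number as a block, each strain left out and the arrays that stand apart left out. An array stood apart if the mean of its epididymis markers was over 3 median absolute deviations (MADs) above the median, or if 1 of 3 principal components was over 5 MADs from it. Leaving out only those over 10 MADs on the markers or over 5 on a component, single mice left out, and the partner gene test were added after the data were seen. Scripts were tested on simulated data. Figures were drawn with matplotlib 3.10.9.

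All 10 genes are named; genes with the largest, smallest and opposite mean effects and the smallest F-test p get full values, and other genes come from lists of pathway and marker genes, of which 138 of 146 were measured. The members and lists were chosen with earlier results of these data known. Promoters were matched by symbol to RefSeq. The software version and the scan or hybridisation batches are not given in the sources used here, and heart, gastrocnemius and neocortex were not analysed here.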

Additional observations from a re-analysis of the deposited data

Results flagged for a closer look

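In a group of 8 mice, a value was taken for a closer look when its gap to the nearest other mouse was too large a share of the group's range by Dixon's test. Of 140 gene-by-group combinations 25 met this, where chance gives about 1 in 20 groups, or 7. They were not spread evenly, since 3 mice gave 19 of the 25.

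C57BL/6J CR mouse 2 gave 9 and was the lowest of its group in each, with log2 signals of 9.63 for Bcat2, 8.69 for Bckdha, 9.50 for Bckdhb, 9.41 for Dbt, 9.55 for Ivd, 8.24 for Mccc1, 9.03 for Mccc2, 9.02 for Acadsb and 10.97 for Hibadh. Its epididymis markers averaged 12.42 and its adipocyte markers 11.49, against at most 8.54 and at least 12.55 in the other CR mice of the strain. CBA/J CR mouse 5 gave 5, again the lowest of its group, with 9.56 for Bckdha, 11.05 for Bckdhb, 9.71 for Dbt, 9.56 for Ivd and 11.22 for Hibadh, and its epididymis markers averaged 12.28. DBA/2J CR mouse 3 gave 5, also the lowest of its group, with 9.58 for Bcat2, 11.19 for Bckdhb, 9.80 for Dbt, 8.52 for Mccc1 and 8.52 for Mccc2. Its epididymis markers averaged 5.41, while its B cell markers averaged 10.40 and its T cell markers 8.68, above all other CR mice of the strain. The results without each of these mice are given in the report.

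The other 6 were single values. Bcat1 was high in BALB/cJ CR mouse 7 (8.70) and in CBA/J control mouse 5 (8.14). Bcat2 was high in 129S1/SvImJ control mouse 8 (10.41), Dbt low in CBA/J control mouse 2 (9.80), Ivd low in DBA/2J control mouse 4 (9.28) and Hibadh high in C3H/HeJ control mouse 2 (11.88).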

How the results depend on the processing

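The number of the 10 genes higher across strains was 7 with all arrays and 6 to 8 under every alternative tried, with 0 lower except 1 (Bcat1) without BALB/cJ. All 10 differed between control strains under every alternative run. Of 200 single-gene checks across strains 193 stayed on their side of the threshold, as did 921 of 980 within strains, and none that was called changed direction. The 4 partner differences and the 36 positive and 1 negative correlations held with either set of arrays that stand apart left out. Gene-by-strain pairs higher within strains numbered 17 to 26, against 19, except 31 with array weights. The 1 lower pair, Bcat1 in CBA/J, was lost, with 0 lower, with the methods' t-test, with quantile normalization, with the replicate block and without CBA/J CR mouse 5. With array weights, or without either set of arrays that stand apart, the 1 lower pair was instead Bcat1 in B6C3F1/J.

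Other counts moved. In C57BL/6J, with 1 gene higher, there were 2 with the methods' t-test or the mean of probe sets, 3 in 1 model of all groups, 4 without the arrays that stand apart, where 1 CR mouse is left and is assumed to vary like the controls, and 7 with array weights, without those that stand apart most or without CR mouse 2. In C3H/HeJ there was 1, against 0, with centring or array weights, and in BALB/cJ 3, against 0, with array weights. In DBA/2J, with 2, there were 0 without the arrays that stand apart and 1 without those that stand apart most. The F-test between strains, with 0 genes, gave 4 without the arrays that stand apart, 7 without those that stand apart most, 6 without C57BL/6J CR mouse 2, 1 without CBA/J CR mouse 5, 0 without DBA/2J CR mouse 3 and 8 with array weights, when 7675 of all genes passed, against 3789. The BALB/cJ contrast gave 1, against 0, in the same settings except the 2 single mice CBA/J CR 5 and DBA/2J CR 3, which gave 0. Single mice left out gave 1 to 7 higher in C57BL/6J and 0 to 1 lower pairs in all. Among all genes the F-test passed 4964 without the arrays that stand apart most and 4559 without C57BL/6J CR mouse 2. It passed 4125 without CBA/J CR mouse 5 and 3799 without DBA/2J CR mouse 3. The within-strain and BALB/cJ counts of this paragraph stand without the share of all genes called in the same setting.

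With the replicate number as a block there were 7 genes higher across strains and 19 pairs higher within strains, with 2 in C57BL/6J, 1 in C3H/HeJ and 1 in DBA/2J. Nothing says that the numbers pair mice: over 56 same-numbered CR and control mice the correlation of their deviations had a median of 0.03, 18 were over 0.1, and 10 CR mice were closest to the control of their own number. The cause of these movements was not tested beyond the arrays left out. The number of arrays limits how small a difference can be seen.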
